A study of Mus musculus with 8 samples.

Results

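Early lymphoid-primed progenitors without interleukin-7 receptor RNA were described in nuclei of sorted mouse bone marrow. A nucleus was a member when its raw unique molecular identifier (UMI) counts met 6 conditions. The sum of Dntt, Cmah and Arpp21 was at least 5, Dntt was at least 1, Il7r was 0 and Ebf1 was at most 1. The sum of the B lineage genes Pax5, Cd79a, Cd79b, Vpreb1 and Igll1 was at most 1, and the sum of the granule protease genes Elane, Prtn3 and Ctsg was 0. Of 8708 nuclei, 249 met the rule, or 2.86% (exact 95% interval 2.52 to 3.23%). The study sorted cells of the LSK phenotype, which lack mature lineage markers and carry Sca1 and ckit, from marrow of T58A mice and of WT littermates. T58A is a point mutation of MYC, the transcription factor that drives growth and division, at a threonine that controls the stability of the protein. RNA and chromatin accessibility of the same nuclei were profiled with the 10x multiome assay, in 2 T58A and 2 WT samples for each readout, each of which pooled 2 mice. Accessibility was not analysed here, and no age or strain of the mice was stated.

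The deposited RNA table held 32285 genes and 45723860 UMIs, with a median of 4147.5 UMIs per nucleus (1001 to 24786). Its barcodes carried 4 suffixes, here called barcode sets 1 to 4, with 2999, 721, 2756 and 2232 nuclei. No label tied a set to a genotype or a replicate, and the name under which the table was deposited mentions T58A alone. Whether it holds WT nuclei at all is therefore not known, no nucleus could be given a genotype, and the table was read as 1 sample without replicates. The sets differed in depth and in RNA content: mitochondrially encoded genes took 24.6%, 9.98%, 24.2% and 9.22% of the UMIs in sets 1 to 4. In all, 36 barcode sequences occurred in more than 1 set, and 2 members carried such a barcode. All intervals below are exact 95% intervals for counting error only, and values of single sets are given beside them.

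Lymphoid priming begins in multipotent progenitors that raise the FLT3 receptor and switch on early lymphoid genes before the interleukin-7 receptor appears. SATB1, Ikaros, MEF2C and E proteins are transcription factors known from this step, NOTCH1 is the receptor that directs T cell fate in the thymus, and interleukin-7 signalling supports the B and T precursors that follow. Dntt encodes terminal deoxynucleotidyl transferase, which adds untemplated nucleotides where antigen receptor gene segments are joined and is among the first lymphoid genes to be transcribed. Primed progenitors of this kind can still hold transcripts of the stem cell and myeloid programs.

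The promoters of 2 genes are shown because they stand for the start of the program (Dntt) and its receptor (Flt3). Each is 250 bases upstream of the RefSeq gene start on the transcribed strand, in build GRCm38.p6: Dntt at chr19:41029025-41029274 on the plus strand and Flt3 at chr5:147400490-147400739 on the minus strand. Capitals mark matches, on either strand, to CAGNTG, the E-box letters bound by E proteins, and to GGGAA, the core letters bound by Ikaros.
Dntt: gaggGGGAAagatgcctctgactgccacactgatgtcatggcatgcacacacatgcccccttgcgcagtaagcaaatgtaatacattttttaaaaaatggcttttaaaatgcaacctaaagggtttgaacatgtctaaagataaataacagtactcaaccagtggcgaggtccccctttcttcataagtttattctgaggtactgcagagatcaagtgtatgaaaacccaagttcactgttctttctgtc
Flt3: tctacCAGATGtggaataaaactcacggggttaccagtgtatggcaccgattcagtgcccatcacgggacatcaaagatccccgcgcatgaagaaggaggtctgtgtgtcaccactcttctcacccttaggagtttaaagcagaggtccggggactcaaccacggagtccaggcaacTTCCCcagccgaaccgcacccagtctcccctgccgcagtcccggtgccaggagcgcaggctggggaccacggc
Dntt held GGGAA at 246 bases upstream of its start and no match to CAGNTG in this window. Flt3 held an E-box, CAGATG, at 245 bases upstream and GGGAA on the other strand at 73 bases. Both words are common: of 32851 mouse promoters of this length, 44.8% held CAGNTG and 56.2% held GGGAA. Of the 41 promoters matched to 22 of 28 lymphoid transcription factor genes, 14 (34.1%) held CAGNTG and 16 (39.02%) held GGGAA. For 19 promoters of 17 of 21 receptor genes the counts were 4 (21.1%) and 8 (42.1%). The 13 promoters of the 4 genes Dntt, Cmah, Arpp21 and Il7r held CAGNTG in 11 (84.6%) and GGGAA in 4 (30.8%). Each promoter of a gene was counted on its own, and promoters of the same gene are not independent. Dntt has a single promoter, without CAGNTG, so all 11 belong to Cmah, Arpp21 or Il7r. None of these shares was tested. A match is a description of the letters and not a bound site.

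The members were chosen by Dntt, Cmah and Arpp21, so their levels of these genes describe the rule. Dntt ranged from 1 to 24 UMIs per member with a median of 4. Cmah, which encodes the hydroxylase that makes N-glycolylneuraminic acid, had a median of 1 and was detected in 165 members, and Arpp21, which encodes an RNA-binding phosphoprotein, had a median of 2 and was detected in 179. All 3 genes were detected together in 125 members (50.2%). Dntt lies at chr19:41029275-41059525, Cmah at chr13:24327404-24477289 and Arpp21 at chr9:112065091-112236288 (GRCm38.p6). Of the members, 23 held 1 Ebf1 UMI and 12 held 1 UMI of the B lineage sum, the most that the rule allows. Il7r was at 0 by the rule, and at a median depth of 5190 UMIs a nucleus with 0 Il7r UMIs may still have expressed the gene at a low level.

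Members were found in every barcode set, but not at 1 share. Sets 1 to 4 held 88, 17, 51 and 93 members, which were 2.93%, 2.36%, 1.85% and 4.17% of their nuclei. Their exact intervals were 2.36 to 3.603%, 1.38 to 3.75%, 1.38 to 2.43% and 3.38 to 5.08%, so the interval of set 4 lay above that of set 3. The sets' median depths over all nuclei were 3035, 6764, 3638.5 and 5930.5 UMIs, and a sum of 5 UMIs is easier to reach in deeper nuclei. With the sum set at 1000 CPM of the nucleus instead of 5 UMIs, 249 nuclei (2.86%) were again members, but not all the same nuclei. Against all other nuclei 509 genes were then lower, beside 277 with the sum of 5 UMIs. Shares by set were not computed at 1000 CPM, so the part of depth in the spread of the sets was not tested. Without set 3 the share was 3.33%, and without set 4 it was 2.41%. Members held 1504201 UMIs, 14.1% of them mitochondrially encoded, and in set 2 a single member held 24662 of the set's 143964 UMIs.

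Flt3, Satb1 and Notch1, markers that the rule did not use, were all high in the members, and the label of lymphoid-primed progenitors was kept. Flt3, the receptor tyrosine kinase of early lymphoid progenitors, was at 1013, 1118, 768 and 963 counts per 1000000 UMIs (CPM) in the members of sets 1 to 4, against 289, 477, 242 and 390.5 CPM in all other nuclei. Satb1, which encodes a chromatin organizer, was at 1093, 1292, 931 and 1396 CPM in members and 336, 594, 249.9 and 517 CPM in the others. For both genes every value of the members was above every value of the other nuclei. Notch1 was at 281, 299, 226 and 227 CPM in members, against 78.4, 102, 54.7 and 86.7 CPM, again without overlap. Over all sets the members stood 2.84-fold (95% interval 2.69 to 2.999) higher for Flt3, 3.002-fold (95% interval 2.86 to 3.15) for Satb1 and 3.18-fold (95% interval 2.85 to 3.54) for Notch1.

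**Figure D1:**
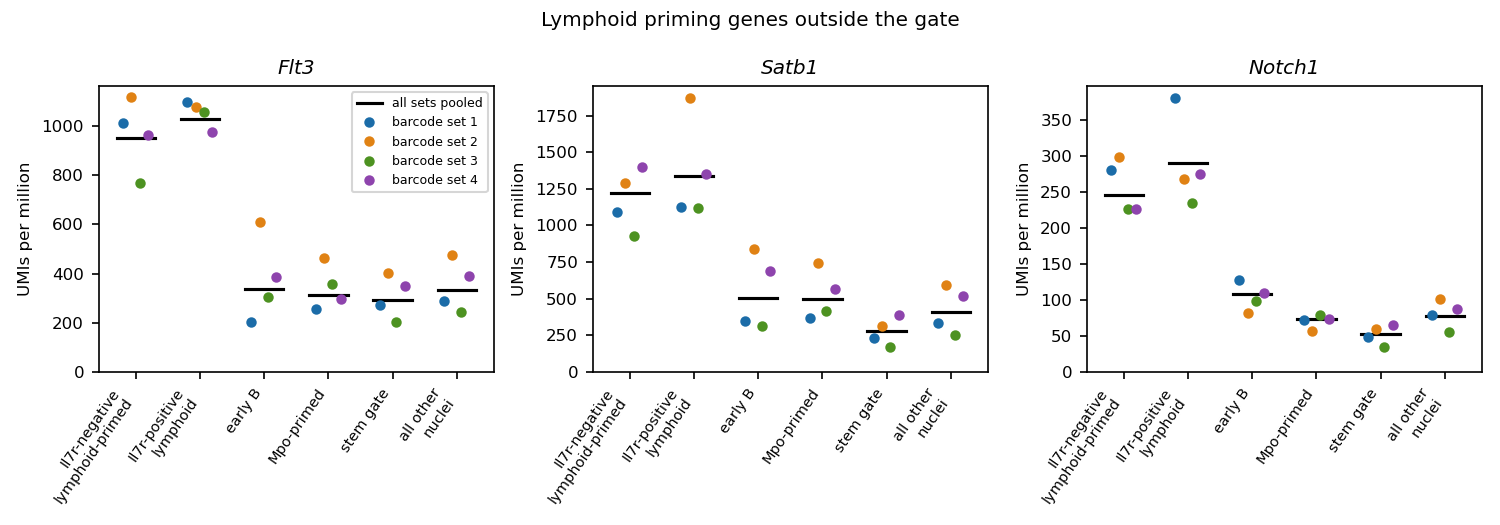
Level of the 3 markers Flt3, Satb1 and Notch1, which the rule did not use, in CPM, with 1 point per barcode set and group and a bar for all sets pooled. The members lay between 768 and 1118 CPM for Flt3, and stem-gated nuclei between 204 and 403 CPM.

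The markers were spread over the members and did not come from a few nuclei. Flt3 was detected in 240 of 249 members, Satb1 in 235 and Notch1 in 161. All 3 were detected in 154 members (61.8%), and 4 members (1.61%) held none of them. After each nucleus was thinned to 2000 UMIs, which left out 13 shallower members, Flt3 was detected in 81.4% of members, 37.4% of stem-gated nuclei and 5.72% of nuclei with an erythroid signature, which should lack it. Satb1 gave 84.3%, 33.1% and 6.31% in the same order, and Notch1 37.3%, 8.91% and 1.78%. The unthinned shares for Flt3 were 96.4% in members, 53.7% in stem-gated nuclei and 18.8% in the erythroid gate, at median depths of 5190, 4165 and 8713.5 UMIs. The shares in members were above those of the erythroid nuclei, which were taken as a guide to free RNA.

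In nuclei that met the other conditions, the sum of Dntt, Cmah and Arpp21 was 3 to 4 in 114 nuclei, just outside, and 5 to 6 in 80, just inside. Flt3 was at 940.01 CPM (95% interval 852 to 1035) inside and 885 CPM (95% interval 815 to 959) outside, and Satb1 at 1158 CPM (95% interval 1059.65 to 1263) against 953 CPM (95% interval 879.86 to 1029.7). The intervals overlapped for Flt3 and not for Satb1. Over sums of 1 to 2, 3 to 4, 5 to 6, 7 to 9 and 10 or more, Notch1 was at 92.96, 150.2, 161, 226 and 309.7 CPM. The stem cell factor gene Hlf ran the other way, at 412, 371, 252, 226 and 133 CPM. Fgf13, which encodes a fibroblast growth factor homologous factor, was at 134, 294, 379, 328 and 583 CPM over the same bins, and Mpo, which encodes myeloperoxidase, at 216, 227, 179, 159.9 and 209 CPM with no steady trend. The bins held 399, 114, 80, 60 and 109 nuclei at median depths of 4039, 4600.5, 4352.5, 4474 and 5598 UMIs.

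**Figure D2:**
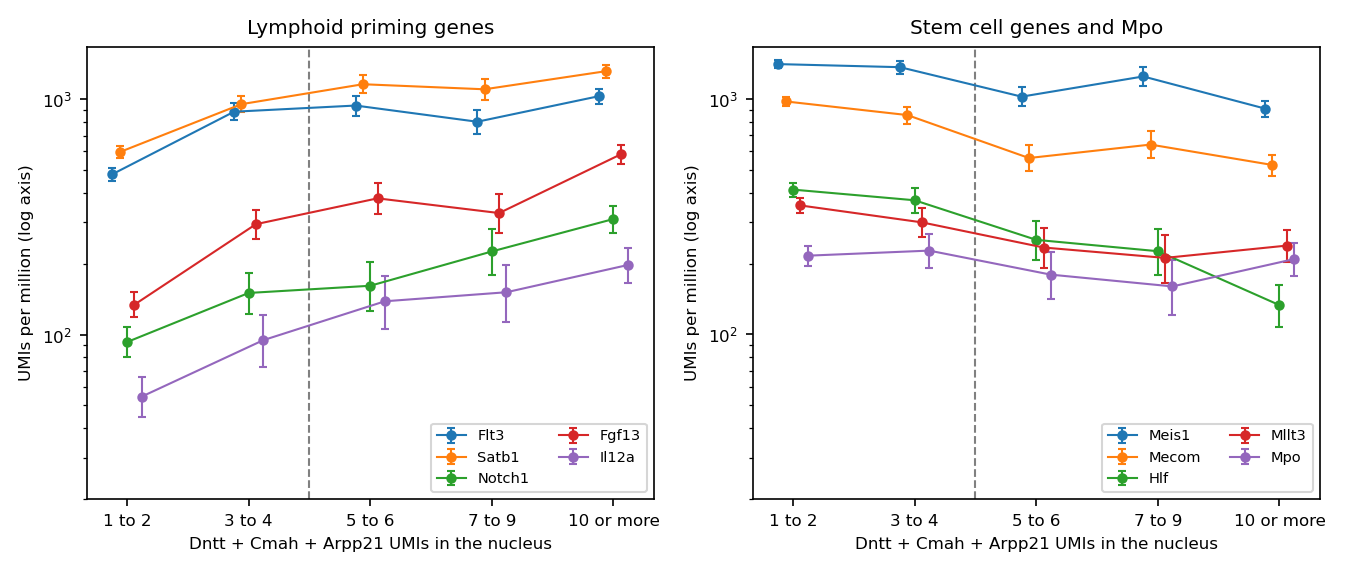
Level of selected genes in CPM over bins of the summed UMIs of Dntt, Cmah and Arpp21, in nuclei that met the other conditions of the rule, on a log axis with exact 95% intervals, and the dashed line marks the threshold of the rule. Flt3, Satb1, Notch1, Fgf13 and Il12a were higher in the bin of 10 or more than in the bin of 1 to 2, while Hlf was lower, at 133 CPM against 412 CPM.

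Most marker lists of other cell types summed to less in the members than in all other nuclei, but the endothelial and stromal list stood higher and the T, NK and innate lymphoid list was close. The stem list had the largest sum of these in the members, at 2060 CPM (1478 to 2406 over the sets). In all other nuclei it was at 2785 CPM (2276 to 3402 over the sets), which overlaps. Of 249 members, 223 held at least 2 UMIs of the stem list. Of 12 T, NK and innate lymphoid markers, 7 were at 0 in all members (Cd3e, Cd3d, Cd3g, Trbc2, Bcl11b, Klrb1c and Gzma), and the list summed to 39.2 CPM (33.04 to 52.3 over the sets), against 36.3 CPM (19.9 to 81.7 over the sets) in all other nuclei. The B lineage list, much of which the rule limits, summed to 142 CPM (34.7 to 176 over the sets) against 326 CPM (238 to 371 over the sets). Dendritic markers summed to 159 CPM (38.5 to 251 over the sets) against 180.5 CPM (95.03 to 258 over the sets), and 2 members held 146 of their 239 UMIs (61.1%). Erythroid markers summed to 159.6 CPM (0 to 435 over the sets) against 783 CPM (258 to 1118 over the sets), with 47.1% of their UMIs in 2 members, and 5 members also met the erythroid gate. Plasma cell markers summed to 109 CPM (20.1 to 248 over the sets) against 349.9 CPM (34.2 to 701 over the sets), and 2 members held 43 and 26 of the 117 UMIs of the joining chain gene Jchain. Those nuclei were kept, since the rule kept them.

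Myeloid progenitor markers summed to 271 CPM (189 to 438 over the sets) against 1161 CPM (649 to 2698 over the sets), with Elane, Prtn3 and Ctsg at 0 by the rule. Megakaryocyte markers summed to 39.9 CPM (23.3 to 51.7 over the sets) against 120.2 CPM (109 to 126 over the sets) with Gp1bb, Ppbp and Treml1 at 0. Neutrophil markers summed to 39.2 CPM (0 to 89.8 over the sets) against 139 CPM (3.11 to 248 over the sets), and mast cell and basophil markers to 13.3 CPM (0 to 16.6 over the sets) against 46.5 CPM (32.4 to 63.6 over the sets). The endothelial and stromal list stood higher, at 297 CPM (279 to 339 over the sets) against 192 CPM (142 to 256 over the sets). Its UMIs lay in 181 of 249 members, with 3.803% of them in 2 members. It rested on Pecam1, an adhesion molecule gene also known from hematopoietic cells, at 297 against 174 CPM, while Stab2, Ldb2, Vcam1, Cdh5 and Lepr were at 0 in the members. Pecam1 met the 1.5-fold rule defined below, but not without barcode set 3, where its log2 ratio was 0.55.

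Stem-gated nuclei served as the comparison group for stem cell genes, without a claim to be nearest to the members. They were 1519 nuclei with a summed Hlf and Mecom count of at least 5, both genes detected, at most 1 UMI of Dntt, Cmah and Arpp21 and 0 granule protease UMIs, and 14.6% of their UMIs were mitochondrially encoded. A gene was counted as higher or lower when the ratio of CPM plus 10 was at least 1.5-fold and every set showed that direction, given 50 counts or more in the 2 groups together. This rule is a description and gives no p-value, and genes that define a gate were kept out. By it, 283 of 10000 genes (2.83%) were higher in the members and 507 (5.07%) were lower, together 7.9%, and the median log2 ratio of all genes was 0.00. Ratios printed below are those of the CPM without the added 10.

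The gene farthest above stem-gated nuclei was Fgf13, at 435, 340.4, 342 and 557 CPM in members of sets 1 to 4 and 35.4, 50.8, 35.3 and 62.8 CPM in stem-gated nuclei. The groups did not overlap, and the pooled ratio was 9.78-fold (95% interval 8.61 to 11.1). The stem gate allows at most 1 UMI of Dntt, Cmah and Arpp21, which also limits nuclei that express other genes along with them. Just outside the rule of the members, at a sum of 3 to 4, Fgf13 was at 294 CPM. The part of the gate in this ratio was not tested. Il12a, which encodes the p35 subunit of interleukin-12, was at 253, 208, 99.7 and 148 CPM in members against 27.02, 41.5, 11.8 and 26.2 CPM, or 7.30-fold (95% interval 6.01 to 8.89) higher. Fgf13 was detected in 47.5% of members and 7.65% of stem-gated nuclei at 2000 UMIs, and Il12a in 32.2% and 4.56%, against 0.986% and 1.38% in the erythroid gate. Next came Satb1 (1219.9 against 279 CPM, 4.37-fold, 95% interval 4.10 to 4.65), Notch1 (247 against 51.8 CPM, 4.76-fold, 95% interval 4.12 to 5.49) and the ephrin receptor gene Ephb2 (99.7 against 16.8 CPM). Clec12a, which encodes an inhibitory lectin receptor, was at 80.4 against 12.3 CPM, the phospholipid flippase gene Atp8b4 at 477 against 122 CPM, and Cd69, known from early activation and tissue retention of lymphocytes, at 323 against 85.4 CPM. The interferon regulatory factor gene Irf8 at 101 against 22.3 CPM and the tetraspanin gene Tspan2 at 88.4 against 20.8 CPM completed the 10 highest. Irf8 overlapped between the groups, since set 2 members were at 20.8 CPM, and it is also known from dendritic cells, whose markers are given above.

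Among the 10 genes farthest below stem-gated nuclei, Pcdh7, a protocadherin gene, was at 46.8, 20.8, 29.9 and 43.1 CPM in members of sets 1 to 4, against 273, 369, 356 and 348 CPM in stem-gated nuclei. Every stem-gated value lay above every member value, and Pcdh7 was 8.57-fold lower (95% interval 6.62 to 11.3). Plxdc2 was at 45.9 against 327 CPM, the scaffold gene Dlg2 at 35.2 against 257 CPM, and the glycosyltransferase genes B3galt1 and Csgalnact1 at 3.99 against 64.6 CPM and 95.1 against 525 CPM. Slc18a2, the vesicular monoamine transporter gene, was at 31.2 against 199.7 CPM, and Rora, which encodes a nuclear receptor, at 45.9 against 269 CPM. Dach1, Ncam2 and Mamdc2 completed the 10 lowest, at 399.5 against 1997 CPM, 3.32 against 50.9 CPM and 14.6 against 99.03 CPM.

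Among receptors, 6 of 18 measured genes were higher than in stem-gated nuclei and 1 was lower, beside 2.83% and 5.07% of all genes. The median log2 ratio of the list was 0.11. Flt3 was at 951 against 293 CPM (3.24-fold, 95% interval 3.03 to 3.47). The interleukin-6 receptor chains Il6st and Il6ra were at 95.7 against 32.4 CPM and 87.1 against 51.5 CPM, and the chemokine receptor gene Cxcr4 was at 48.5 against 28.5 CPM. Kit, the receptor for stem cell factor and a marker of the sort, was the lower gene: members of sets 1 to 4 had 319, 438, 306 and 386 CPM and stem-gated nuclei 561, 574, 588 and 681 CPM, with no overlap. Il6ra and Cxcr4 depended on single sets, since the log2 ratio of Il6ra was 0.44 without set 4, and that of Cxcr4 was 0.56 without set 1 and 0.57 without set 2, all short of 1.5-fold. With a sum of at least 3 UMIs Cxcr4 was at 0.48, and with at least 8 Il6ra was at 0.58.

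Lymphoid transcription factor genes had a median log2 ratio of 0.07. They were the list with the most genes higher, 8 of 21 measured, with 2 lower, beside 2.83% and 5.07% of all genes. Beside Satb1 they were Ikzf1, the Ikaros gene, at 1175, 1174, 1060.4 and 1297 CPM in members and 569, 696, 507 and 713 CPM in stem-gated nuclei, and Tcf4, an E protein gene, at 884, 909.95, 738 and 846 against 488, 556, 475 and 555 CPM. Neither gene overlapped between the groups. Bach2, a repressor gene known from B cells, was at 366 against 198 CPM, Ets1 at 39.2 against 18.1 CPM, Foxp1 at 2385 against 1566 CPM, Mef2c at 1936 against 1095 CPM and Irf8 as given above. Mef2c was higher within each set, but varied over sets by more than the gap, with members at 1335, 1723, 1493 and 2485 CPM and stem-gated nuclei at 674, 1254, 840.01 and 1489.5 CPM. The lower genes were Ikzf2, the Helios gene, at 333 against 574 CPM and Zfp521 at 146 against 233 CPM. Foxp1 fell short of the threshold without set 1 (log2 ratio 0.58) or set 4 (0.57), and Zfp521 without set 1 (-0.58). With a sum of at least 3 UMIs the calls of Foxp1 (0.56), Ikzf2 (-0.584) and Zfp521 (-0.48) ended.

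Stem cell genes formed the list with the lowest median and the most genes lower. Of 21 measured, 14 were lower, beside 5.07% of all genes, 0 were higher, and the median log2 ratio was -1.17. The count leaves out Hlf and Mecom, which define the stem gate. Genes expressed along with them are also raised in stem-gated nuclei by that choice, so the gate partly sets the direction and size. Against all other nuclei the list median was -0.50, with 11 of 25 genes lower and 1 higher. Meis1, a homeobox gene of stem and progenitor cells, was at 801, 1327, 891 and 1128 CPM in members and 1644, 2351, 1601 and 2173 CPM in stem-gated nuclei, with no overlap. Larger ratios were found for Tek, the angiopoietin receptor gene (3.99 against 39.3 CPM), Prdm16 (26.6 against 146 CPM), Fgd5 (3.99 against 48.6 CPM), Gata2 (20.6 against 106 CPM) and Procr, the endothelial protein C receptor gene (3.32 against 13.2 CPM). Mllt3 at 231 against 534 CPM, Lmo2 at 369.6 against 638 CPM and Tal1 at 25.9 against 64.99 CPM were lower by less than these, and Slamf1, Ctnnal1 and Zfpm1 were among the others. Meis1 RNA was lower but not lost, since 75.8% of members held it at 2000 UMIs against 94.5% of stem-gated nuclei and 16.6% of the erythroid gate.

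**Figure D3:**
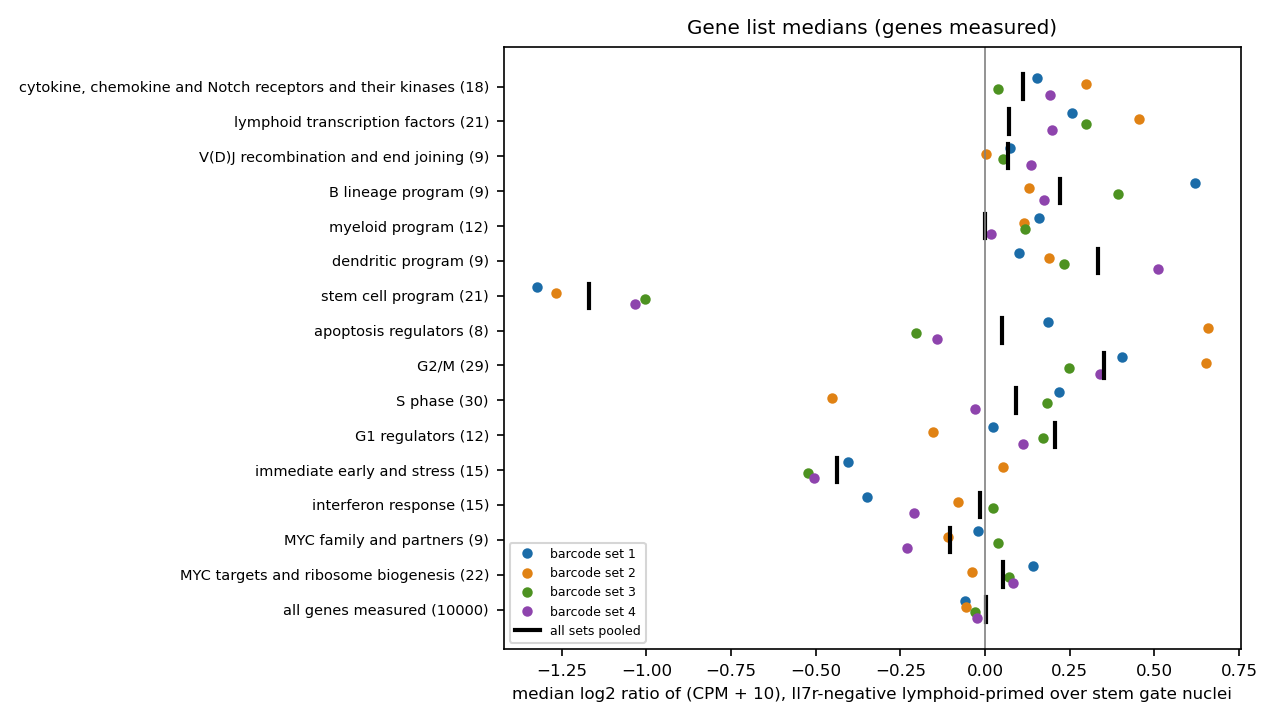
Median log2 ratio of members over stem-gated nuclei for each gene list, with the pooled value and the values of the 4 barcode sets. Lists of fewer than 5 measured genes are left out. The stem cell list lay lowest, at -1.17, and the medians of the 4 sets all lay on the same side of 0.

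In the lists of the B, T, myeloid and dendritic lineages between 1 and 3 genes were above the stem gate, beside 2.83% of all genes measured. In the B lineage list 3 of 9 measured genes were higher: Blnk, which encodes a B cell linker protein, at 65.8 against 8.77 CPM (7.51-fold, 95% interval 5.46 to 10.4), the heavy chain gene Ighm at 247 against 94.3 CPM and Cd93 at 193 against 104 CPM. Blnk was detected in 11.02% of members at 2000 UMIs, against 1.68% of stem-gated nuclei and 80.8% of nuclei of the early B gate, so it was high in few members. Of the 371 Ighm UMIs, 79 lay in 2 members; plasma cell markers are given above, and their part in the Ighm level was not tested. Of 3 measured genes of the T lineage list, Lck, the proximal T cell receptor kinase gene, was higher at 31.2 against 7.22 CPM, while Gata3 was at 5.98 against 10.7 CPM and Bcl11b, which had too few counts to be measured, at 0. In the myeloid list Ly86 (39.9 against 7.48 CPM) and Plac8 (183 against 65.1 CPM) of 12 were higher, and in the dendritic list Irf8 and Tcf4 of 9. Of 9 measured genes of V(D)J recombination and end joining, 1 was higher, the Ku subunit gene Xrcc6 at 89.7 against 50.5 CPM, whose log2 ratio was 0.53 with a sum of at least 3 UMIs, short of the threshold. The recombinase genes themselves were near 0 in the members, with 1 UMI of Rag1 and 5 of Rag2.

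Members were not uniform in their RNA of stem cell genes. Of 249 members, 163 (65.5%) held Hlf or Mecom and 50 (20.1%) met the Hlf and Mecom condition of the stem gate. These 50 were deeper, with a median of 9212.5 UMIs against 4415 in the other 199, and a fixed UMI sum favours deep nuclei. Doublets of a lymphoid-primed and a stem cell nucleus would also be deep and hold both programs. Of the 249 members, 23 were among the 436 nuclei with the 5% highest doublet scores of their set. The part of doublets in the 50 nuclei was not tested. Their Gata2 level was 53.7 CPM, against 3.99 CPM in the other members, and Kit was at 513 against 282 CPM. Flt3 was at 798 against 1027 CPM, Satb1 at 901 against 1379.7 CPM and Notch1 at 165 against 288 CPM. The topoisomerase gene Top2a, known from dividing cells, was close in both, at 665 and 673 CPM. The 50 nuclei were picked by their counts, so these values carry no test.

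Mpo RNA was present in 130 members (52.2%), but 11 (4.42%) held 5 or more UMIs. Members of sets 1 to 4 had 138, 361, 109.7 and 214 CPM, against 121, 259, 105 and 191 CPM in stem-gated nuclei, which overlap. At 2000 UMIs Mpo was detected in 28.4% of members, 22.7% of stem-gated nuclei, 9.47% of the erythroid gate and 91.5% of Mpo-primed nuclei, which were gated on 5 or more Mpo UMIs. Mpo together with Hlf or Mecom was found in 92 members (36.9%). The erythroid gate, which should lack Mpo, was taken as a guide to the background of this share. Its nuclei lay in other proportions over the sets, with 191, 12, 237 and 82 in sets 1 to 4 against 88, 17, 51 and 93 members. Whether its Mpo UMIs were free RNA was not tested.

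Compared with their nearest relatives, the 158 nuclei that met the same rule with at least 1 Il7r UMI (1.81% of all), few genes were counted in either direction. Of 6324 genes measured, 74 (1.17%) were higher in the members and 49 (0.775%) were lower, together 1.94%, and the median log2 ratio was 0.00. On simulated counts the same rule counted 2.08% of unchanged genes. The spread between sets in that simulation was assumed and not estimated from these nuclei, so its rate is a rough guide. The genes below are therefore given as values of these nuclei, and no single count is read as a difference between the groups. The genes counted changed with the alternatives: after thinning to 2000 UMIs, 13 of the 74 higher and 10 of the 49 lower genes were counted again, and with the sum of the gate set at 1000 CPM 29 and 26 were. Of 27 named counts here, 7 held under all 15 alternatives, those of Kit, Csf3r, Ikzf2, Egr1, Prkca, Col19a1 and Clcn5. Il7r, at chr15:9506159-9529941, chose the groups and was kept out. Median depth was 5190 UMIs in members and 5555.5 in Il7r-positive nuclei, and mitochondrially encoded genes took 14.1% and 13.4% of the UMIs. By set the members were shallower, at medians of 3488.5, 5656, 4290 and 6299 UMIs in sets 1 to 4. Il7r-positive nuclei had 3519.5, 6982, 5526 and 7298 UMIs. The markers of lymphoid priming did not separate the groups: Flt3 was at 951 against 1032 CPM, Satb1 at 1219.9 against 1336 CPM and Notch1 at 247 against 290.2 CPM in members and Il7r-positive nuclei, and all 3 overlapped between the sets.

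Kit was at 319, 438, 306 and 386 CPM in members of sets 1 to 4, against 91.7, 176, 176 and 275 CPM in Il7r-positive nuclei, with no overlap, and the ratio was 1.77-fold (95% interval 1.499 to 2.09). Car2, which encodes carbonic anhydrase 2, was at 132, 236, 209 and 158 against 22.9, 77.5, 99.8 and 80.7 CPM, also without overlap (2.39-fold, 95% interval 1.83 to 3.17). Csf3r, the granulocyte colony-stimulating factor receptor gene, was at 110.1, 222, 86.4 and 119 against 41.3, 98.7, 11.7 and 61.1 CPM, higher within each set but overlapping between sets. Among the 10 highest genes with at least 100 counts, the largest ratio was that of Eda, the ectodysplasin gene, at 75.8 against 23.3 CPM (3.26-fold, 95% interval 2.07 to 5.35), which rested on 23 UMIs in Il7r-positive nuclei. The interleukin-15 gene Il15 (136 against 75.8 CPM), the hepatocyte growth factor gene Hgf (95.1 against 44.5 CPM), Rgs2, a regulator of G protein signalling (153 against 71.8 CPM), Scml4 (62.5 against 27.3 CPM), Erc1 (59.8 against 26.3 CPM) and Fam49a (51.9 against 24.3 CPM) made up the 10 highest. Without set 4 Erc1 and Fam49a were no longer counted, since fewer than 50 counts remained, although their log2 ratios were 0.74 and 0.89.

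Over all genes 1.17% were higher than in Il7r-positive nuclei and 0.775% lower. Of the gene lists, receptors had 2 of 15 genes higher (Kit and Csf3r) and 1 lower (Il6st). Il6st, the shared signal transducer of the interleukin-6 family, was at 102, 104, 59.8 and 106 CPM in members and 169.6, 155, 123 and 164 CPM in Il7r-positive nuclei, without overlap, but it fell short with a sum of at least 8 UMIs (log2 ratio -0.53), at 1000 CPM (-0.54), without the highest doublet scores (-0.51) and after thinning (-0.13). Lymphoid transcription factors had Ikzf2 higher (333 against 200.2 CPM) and Ets1 lower (39.2 against 82.9 CPM), the stem cell list had Lmo2 higher (369.6 against 235 CPM; 1 of 13), and the immediate early list had Egr1 (249 against 149.7 CPM) and Zfp36 (113 against 64.7 CPM; 2 of 13). S phase genes had 2 of 27 lower, the helicase subunit gene Mcm7 (46.5 against 83.9 CPM) and the replication licensing gene Cdc6 (19.9 against 40.5 CPM). Mcm7 fell short without the highest doublet scores (log2 ratio -0.56) and after thinning (-0.47). Cd74, the invariant chain gene, was higher at 57.8 against 7.08 CPM, but 2 members held 49 of its 87 UMIs. Single sets decided several of these calls: the log2 ratio was 0.50 for Lmo2 without set 2, 0.49 for Zfp36 without set 1 and -0.52 for Cdc6 without set 3. Without set 1 or set 4 Cdc6 had fewer than 50 counts left, at log2 ratios of -0.88 and -0.78. Cd74 had fewer than 50 counts left without set 4, where its log2 ratio was 1.55.

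The genes farthest below the Il7r-positive nuclei were led by Rpgrip1, at 19.3 against 75.8 CPM (3.93-fold lower, 95% interval 2.53 to 6.27). The diacylglycerol kinase gene Dgke was at 29.9 against 80.9 CPM, the collagen gene Col19a1 at 48.5 against 122 CPM and Gfra1, a receptor gene of the glial cell line-derived neurotrophic factor family, at 31.2 against 72.8 CPM. Ets1 was at 55.05, 41.7, 33.2 and 33.04 CPM in members of sets 1 to 4 and 105, 56.4, 64.6 and 87.2 CPM in Il7r-positive nuclei, with no overlap. Prkca, which encodes protein kinase C alpha, was at 203 against 366 CPM, and Clcn5, Gm2629 and Plxdc2 were at 51.9 against 95.1 CPM, 64.5 against 124 CPM and 45.9 against 93.04 CPM. The call of Plxdc2 ended without set 2, at a log2 ratio of -0.56. Fgf13, chosen after its values were seen, was also among the 49 lower genes, at 435, 340.4, 342 and 557 CPM in members and 573, 987, 628 and 807 CPM in Il7r-positive nuclei. The T lineage gene Bcl11b was at 0 in members, against 57 UMIs in Il7r-positive nuclei, of which 44 lay in 2 nuclei, and Rag2 was at 5 against 17 UMIs.

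Levels of chosen genes were set out in stem-gated, Il7r-negative, Il7r-positive and early B nuclei. For the genes given here, the pooled level of the members lay between those of the stem gate and the Il7r-positive nuclei. These genes were picked, and not every gene followed this order. Plxdc2, whose levels are given above, was lower in the members than in either group. No count over all genes was made, and the order is not a tested series. The early B gate held 154 nuclei with at least 2 Ebf1 UMIs and at least 2 of the B lineage sum. In that order Satb1 was at 279, 1219.9, 1336 and 501 CPM, Fgf13 at 47.5, 464, 750.4 and 683 CPM and Il12a at 23.2, 169.5, 253 and 54.5 CPM. Kit was at 618, 359, 203 and 208 CPM and Meis1 at 1899, 1020.5, 877 and 442 CPM. Flt3 was at 293, 951, 1032 and 335 CPM, Blnk at 8.77, 65.8, 96.1 and 1073 CPM and Bcl2, which encodes a survival protein, at 290.3, 612, 709 and 185 CPM. Members and Il7r-positive nuclei did not differ beyond the spread of the sets for Satb1, Il12a, Meis1, Flt3, Blnk and Bcl2, whose single-set values overlapped.

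**Figure D4:**
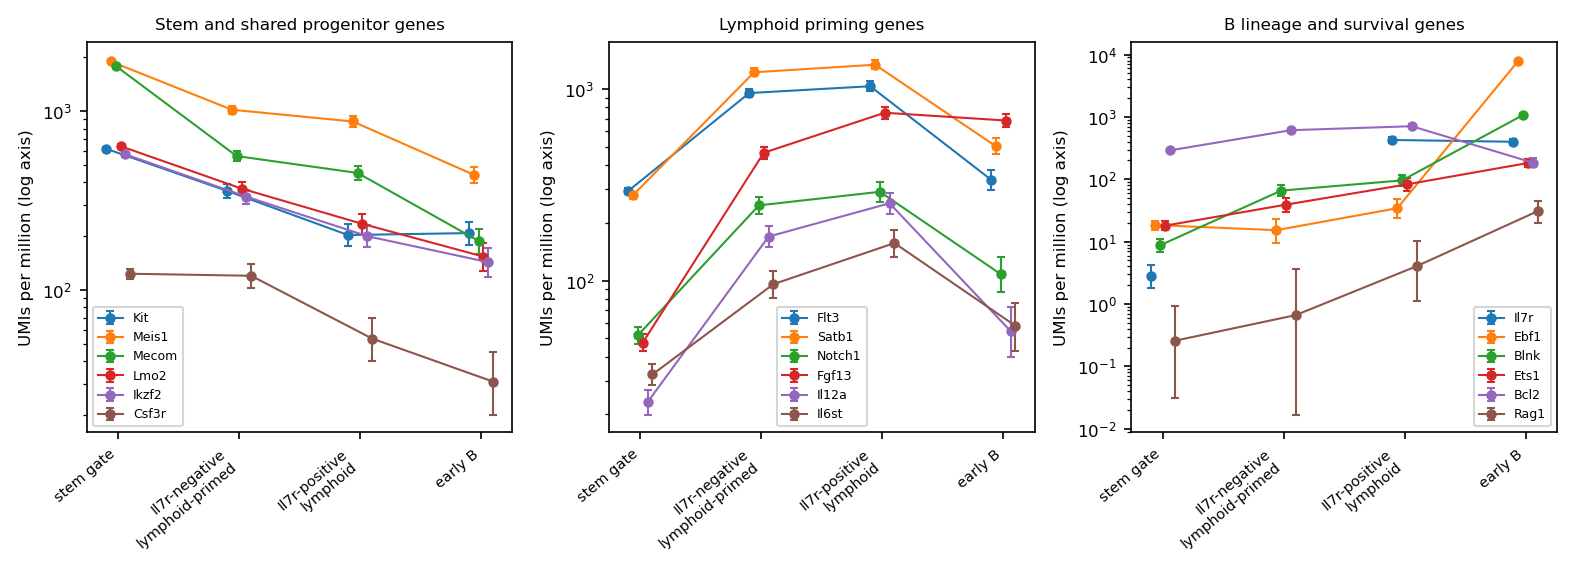
Level of selected genes in CPM on a log axis in stem-gated nuclei, the members, Il7r-positive lymphoid nuclei and the early B gate, with 1 point per gate for all sets pooled, exact 95% intervals and lines that join the points of a gene. Il7r is not drawn in the members, where the rule set it to 0, and Mecom, Il7r and Ebf1 were used by gates. Pooled Kit was 618, 359, 203 and 208 CPM in this order, and pooled Fgf13 47.5, 464, 750.4 and 683 CPM.

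Set against all 8459 other nuclei, which mix stem, myeloid, erythroid, megakaryocyte and lymphoid nuclei, 242 of 13112 genes (1.85%) were higher in the members and 277 (2.11%) were lower, together 3.96%. The 10 highest were Fgf13 (464 against 118 CPM), the adhesion molecule gene Chl1 (62.5 against 10.7 CPM, 5.82-fold, 95% interval 4.61 to 7.27), Il12a (169.5 against 45.4 CPM), Satb1, Notch1, Il18rap, the accessory chain gene of the interleukin-18 receptor (166 against 51.5 CPM), Ephb2 (99.7 against 28.3 CPM), the semaphorin gene Sema3d (106 against 30.8 CPM), Flt3 and the interleukin-1 receptor gene Il1r1 (136 against 43.7 CPM). Il18rap was at 173, 250.1, 123 and 164 CPM in members of sets 1 to 4 and 53.8, 67.3, 42.1 and 51.7 CPM in the other nuclei, with no overlap. Chl1 did not overlap either, at 71.6, 55.6, 46.5 and 66.1 against 7.28, 24.5, 6.18 and 11.9 CPM, although it was detected in 39 members. Receptors had 5 of 21 genes higher and 0 lower: Flt3, Notch1, Il6st (95.7 against 52.6 CPM), the costimulatory receptor gene Cd27 (106 against 64.5 CPM) and Ccr9, a receptor for thymic homing (17.3 against 7.35 CPM). Cd27 fell short without set 1 (log2 ratio 0.55) and Ccr9, which had 26 UMIs in members, without set 3 (0.34). Cd27 also fell short with a sum of at least 3 UMIs (0.54), and Ccr9 with at least 8 (0.42).

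Among the 10 genes lowest against the other nuclei, the mitochondrial carrier gene Slc25a21 was at 75.8 against 486 CPM, the coagulation factor gene F13a1, known from monocytes, at 14.6 against 86.8 CPM, Mpo at 189 against 669 CPM and the kappa light chain gene Igkc at 193 against 783 CPM. Pcdh7, Sox6, Cecr2, Myo1d, Dach1 and Slc18a2 completed the 10 lowest, with Dach1 at 399.5 against 1332 CPM and Cecr2 at 1.99 against 30.2 CPM. Over all genes 1.85% were higher and 2.11% lower. Of the stem cell list 11 of 25 genes were lower and 1 was higher, the homeobox gene Hoxa9 at 165 against 96.1 CPM, with a median log2 ratio of -0.50. In the T lineage list 2 of 7 genes were higher, Lck and the GTPase gene Gimap6 (254 against 140.1 CPM), and in the B lineage list 1 of 15, the kinase gene Blk (11.3 against 3.32 CPM), which lost its call without set 3 (log2 ratio 0.19). The other nuclei are a mixture set by the sort, so these ratios depend on its make-up. The rule of the members also leaves out nuclei with granule protease UMIs or more than 1 UMI of the B lineage sum, which the other nuclei keep. That choice can lower Mpo, F13a1, Igkc and Cecr2 in the members, and its part was not tested. Against stem-gated nuclei, which also hold 0 granule protease UMIs, Mpo overlapped, as given above.

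Of 8 measured apoptosis regulators 2 were higher than in stem-gated nuclei and 0 were lower, beside 2.83% higher among all genes. Bcl2 was at 562, 563, 392 and 743 CPM in members of sets 1 to 4 and 295, 319, 290.5 and 282 CPM in stem-gated nuclei, without overlap, or 2.11-fold (95% interval 1.95 to 2.28) higher. Bcl2l11, which encodes the pro-death BCL2 relative BIM, was higher too, at 57.8, 111, 126 and 108 against 26.4, 35.4, 42.8 and 43.5 CPM (2.56-fold, 95% interval 2.09 to 3.12). Mcl1, another survival gene, was at 113 against 152 CPM, short of 1.5-fold. Bcl2 was detected in 57.2% of members and 35.5% of stem-gated nuclei at 2000 UMIs, against 11.2% in the erythroid gate.

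Of 29 measured G2/M genes 5 were higher in members than in stem-gated nuclei and 0 lower, with a median log2 ratio of 0.35: Ect2 (179 against 88.6 CPM), Nusap1 (98.4 against 54.7 CPM), Kif23 (236 against 138 CPM), Hmmr (101 against 62.7 CPM) and Bub1 (101 against 63.6 CPM), all known from mitosis. Of 30 S phase genes 0 were counted in either direction, with a median of 0.09, and of 12 G1 regulators 0. Among all genes 2.83% were higher and 5.07% lower. The difference between the G2/M and S phase lists was not tested. Hmmr fell short without set 1 or set 2 (log2 ratios 0.53 and 0.48), and Bub1 without set 4 (0.43). With the sum of the gate set at 1000 CPM, 3 of the 5 fell short, Bub1 (0.38), Hmmr (0.25) and Nusap1 (0.43), and thinning took Hmmr to 0.20. After thinning to 2000 UMIs, 75% (177 of 236 nuclei, 95% interval 68.97 to 80.4%) of members held at least 2 G2/M genes, against 62.9% (896 of 1425 nuclei, 95% interval 60.3 to 65.4%) of stem-gated nuclei. By set the shares were 81.01%, 64.7%, 70.8% and 73.9% in members and 67.6%, 61.9%, 58% and 64.4% in stem-gated nuclei, higher in members within each set but overlapping between sets. The order depended on depth: at 4000 UMIs members were below stem-gated nuclei in set 2 (88.2% against 91.8%) and set 4 (90% against 92.05%), and at 1000 UMIs in set 2 (35.3% against 36.2%).

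For S phase genes the share was 75% (177 of 236 nuclei, 95% interval 68.97 to 80.4%) in members and 71.3% (1016 of 1425 nuclei, 95% interval 68.9 to 73.6%) in stem-gated nuclei, and the intervals overlapped. In set 2, with 17 members, it was 47.1% in members against 69.5% in stem-gated nuclei. Il7r-positive nuclei stood at 78.8% for G2/M and 84.6% for S phase, early B nuclei at 90.8% and 91.5%, and Mpo-primed nuclei at 86.1% and 93.9%. The unthinned shares of members were 88.4% for G2/M and 88.4% for S phase. Detection of a gene in a nucleus includes free RNA, so the shares are not shares of dividing cells.

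**Figure D5:**
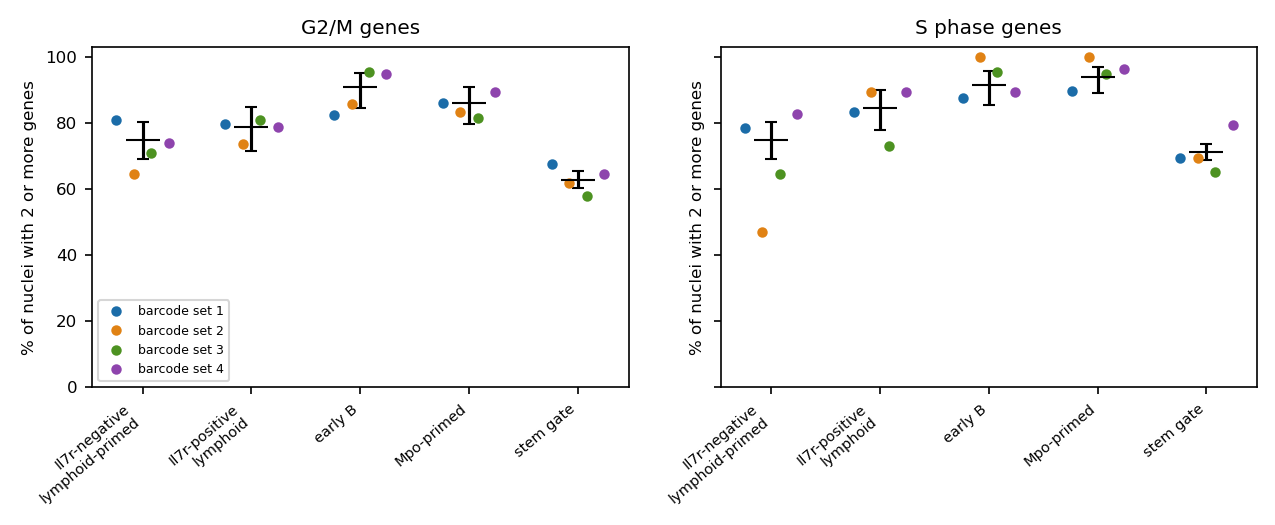
Share of nuclei, in percent, with at least 2 G2/M genes or at least 2 S phase genes detected after thinning to 2000 UMIs, by gate, with exact 95% intervals and 1 point per barcode set. Members stood at 75% for both lists, and stem-gated nuclei at 62.9% for G2/M and 71.3% for S phase.

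MYC is the gene that the study mutated, and its RNA level overlapped between the 3 gates. Myc was at 49.5, 55.6, 43.2 and 60.3 CPM in members of sets 1 to 4, at 50.4, 58.5, 36.1 and 56.3 CPM in stem-gated nuclei and at 45.8, 56.4, 70.5 and 71.97 CPM in Il7r-positive nuclei, which overlap. Of 9 measured genes of the MYC family and its partners 1 was lower than in stem-gated nuclei, Mycn, with 9 UMIs in members (5.98 against 14.3 CPM), and its call ended without set 1 or set 2 (log2 ratios -0.37 and -0.50). Of 22 MYC targets and ribosome biogenesis genes 1 was higher, the transferrin receptor gene Tfrc at 187 against 86.01 CPM, with a list median of 0.05. Among all genes 2.83% were higher and 5.07% lower than in stem-gated nuclei. The table cannot show what T58A does to these levels, since no nucleus could be given a genotype and it is not known whether WT nuclei are in it.

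Immediate early and stress genes were lower in members than in stem-gated nuclei for 4 of 15 measured genes, beside 5.07% of all genes. Their median log2 ratio was -0.44. Egr1 was at 249 against 472 CPM, Fosb at 241 against 463 CPM, the nuclear receptor gene Nr4a1 at 55.2 against 128 CPM and Jund at 120.3 against 196 CPM. The medians of sets 1 to 4 were -0.40, 0.05, -0.52 and -0.51, so set 2 did not share the direction. Jund fell short of 1.5-fold without set 3 or set 4 (log2 ratios -0.58 and -0.52). Of 15 interferon response genes 0 were counted in either direction against stem-gated nuclei. Against all other nuclei 1 of 18 was higher, beside 1.85% of all genes: Ifi44 at 29.3 against 14.3 CPM, but not without set 4 (0.58).

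Genes counted in either direction against stem-gated nuclei had a longer median length than all measured genes, and against Il7r-positive nuclei only the lower genes did. Against stem-gated nuclei the median gene length was 56.01 kb for the higher genes and 73.4 kb for the lower genes, beside 27.9 kb for all measured genes. Against Il7r-positive nuclei it was 30.4 kb for the higher genes and 42.8 kb for the lower genes, beside 38.2 kb. The part of gene length in these calls was not tested, and levels of different genes were not compared with each other.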

How the data were processed

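RNA counts of sorted marrow nuclei were taken from the 1 deposited table. Its values are UMI counts per gene and nucleus as the authors deposited them, raw and with no normalization, and were checked to be whole numbers. Per the submitters' processing notes the tools were Cell Ranger ARC, Seurat and Signac and the build mm10; for versions, annotation and nucleus filters, the entry is not given in the sources used here. Of 32285 genes, 9429 had no count. Barcode suffixes could not be tied to samples, and whether WT nuclei are in the table is not known, so no model across samples was fitted and T58A and WT were not compared.

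Counts were summed per gate and barcode set and scaled to CPM with Python 3.11.15, numpy 2.4.6, scipy 1.17.1 and pandas 2.3.3. A gene was called at a ratio of CPM plus 10 of at least 1.5 with the same direction in all 4 sets, given 50 counts over both groups. Shares have exact Clopper-Pearson intervals, CPM values exact Poisson intervals and ratios exact binomial intervals, at 95%. Members, 16 gene lists and 12 marker lists were chosen with earlier results of these data known, so their direction is not independent evidence. Named genes are, per comparison, the 10 highest and the 10 lowest ratios among called genes with at least 200 counts (100 against Il7r-positive nuclei), without gate genes, mitochondrially encoded genes and sex-linked markers; members of the lists may be named too, and a few of them are counted but not reported by name here. The erythroid gate, taken as a guide to free RNA, was a sum of at least 10 UMIs of Klf1, Car1, Ermap and Slc25a21. It held 522 nuclei. Doublets were kept; as an alternative, nuclei with the 5% highest simulated-doublet scores of their set were left out (436 nuclei, 23 members; scikit-learn 1.9.0). Other alternatives changed the sum in the gate, its scale, the barcode sets, scaling, weighting, depth, pseudocount and count minimum. The scripts were tested on simulated data with an assumed spread between sets. There the call rule also counted some unchanged genes, most often against Il7r-positive nuclei. Promoters, gene positions and lengths are RefSeq's for GRCm38.p6.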

Additional observations from a re-analysis of the deposited data

How the results depend on the processing

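No paired analysis was possible because no label or header ties a barcode to a sample, so the columns carry no replicate numbers, and the comparison of T58A with WT and its replicate block were not run. Of 2518 values of named genes under the alternatives, 2343 kept their direction and their side of the 1.5-fold rule, 174 kept the direction and lost the call, and 1 reversed. Calls that held under all 15 alternatives were 52 of 75 named against stem-gated nuclei, 41 of 66 against all other nuclei and 7 of 27 against Il7r-positive nuclei. Thinning to 2000 UMIs, which leaves fewer counts, ended the most calls (40 of 168). The share of members was 4.17% with a sum of at least 3 UMIs, 1.64% with at least 8, 3.33% without barcode set 3 and 2.41% without set 4. Against all other nuclei, the lower genes numbered 509 with the sum set at 1000 CPM of the nucleus, 498 without set 4, 630 after thinning and 1141 with CPM plus 1, where 428 were higher. With CPM plus 1, 812 genes were lower against stem-gated nuclei. Against Il7r-positive nuclei, 127 genes were higher with a sum of at least 3 UMIs, 76 were lower at 1000 CPM and 79 without set 1. The higher and lower genes there numbered 124 and 112 without set 4, 135 and 88 by the mean of the 4 sets, 126 and 104 with CPM plus 1, and 40 and 27 with at least 100 counts. After thinning they numbered 71 and 43, of which 13 and 10 were among the 74 and 49 reported, and at 1000 CPM 29 and 26 were among them. Except for that count minimum, under which fewer genes are measured, the cause of these moves was not tested. At 1000 and 4000 UMIs per nucleus the G2/M share was 56.2% and 93.3% in members, 62.7% and 97.3% in Il7r-positive and 41.9% and 91.8% in stem-gated nuclei. The S phase share was 51.8% and 95.1% in members, 65.8% and 98.2% in Il7r-positive and 48.2% and 94.2% in stem-gated nuclei. Against all other nuclei, Ldb2, at 0 in members, had a log2 ratio of 0.042 with a sum of at least 3 UMIs, the median of the lymphoid transcription factors was -0.032 without set 4 and -0.038 over non-mitochondrial UMIs, and that of the MYC targets was 0.0074 after thinning. Against stem-gated nuclei the myeloid median, 0.00 as reported, was -0.078 at 1000 CPM, -0.014 with Flt3 required, -0.085 after thinning, -0.0049 without set 2 and -0.0050 over non-mitochondrial UMIs. Without the nuclei of the erythroid gate, an alternative chosen after seeing the data, 2.98% were members, and the higher and lower genes numbered 192 and 280 against the rest, 289 and 523 against stem-gated nuclei and 75 and 48 against Il7r-positive nuclei.

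Depth limits what single genes can show, since 3 counts in the members correspond to 1.99 CPM and set 2 held 17 members. The table is 1 sample without replicates, the 4 sets differ in depth and mitochondrial share, and agreement over sets is no test. Members were picked by RNA counts, so nuclei with unsampled Il7r or Dntt RNA fall on the wrong side of the rule.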
